A study of Mus musculus with 12 samples.

Results

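The Mir302/Mir367 cluster is a row of 5 miRNA hairpins, Mir302b, Mir302c, Mir302a, Mir302d and Mir367, that lies inside Larp7 on mouse chromosome 3. All 6 rows carrying these names, out of 32101 features in the small RNA table, were taken as members. Small RNAs of 20 to 24 nt were measured in 12 libraries of mouse embryonic stem cells (ESCs), pluripotent cells derived from the early embryo. The groups were wild type (WT, 6 libraries in 3 pairs), Dnmt1 KO (genotype Dnmt1 -/-, 2 libraries in 1 pair) and Dicer/Dnmt1 KO (genotype Dicer/Dnmt1 -/-, 4 libraries in 2 pairs). The titles of a pair differ only in the letter A or B. A pair is called a culture here, though the labels do not say so. Whether A and B were separate growths is not stated, so p-values measure the spread between libraries, which may be technical. Every library is labelled E14, and WT culture 2 is titled without a genotype.

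In the methods, Cre was induced with tamoxifen to delete Dnmt1 from ESCs grown in serum and LIF, with or without feeder cells. Those cells are described there as of another strain than E14. From them a line with loxP sites at both Dicer and Dnmt1, for deletion of both by Cre, and a line lacking Dicer throughout were made by CRISPR in colonies grown from single cells. The small RNAs are described there for the line with both conditional alleles, while the labels name neither. The labels give neither the time after deletion nor the use of feeders for these libraries. A difference of line and the genotype cannot be told apart in any comparison between the groups. Culture and genotype cannot be told apart for Dnmt1 KO, which has a single pair of libraries. In these bulk samples, fewer cells expressing a small RNA and less of it per cell cannot be told apart either.

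A miRNA is cut from a hairpin, first from the primary transcript by Drosha and then by Dicer, which releases the mature strands. The bases near the 5′ end of a mature miRNA, called the seed, pair with target mRNAs, so miRNAs with the same seed can share targets. Mir302/Mir367 is known as a cluster of pluripotent cells, and its miR-302 members share their seed with miRNAs of the Mir290 cluster, an abundant ESC family, which act on the cell cycle. miR-367 has another seed, that of the miR-25 and miR-92 family. Larp7 encodes an RNA-binding protein that holds and stabilises 7SK, the small nuclear RNA that restrains the transcription elongation factor P-TEFb. Dnmt1 copies DNA methylation at replication.

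The mature sequences below (RefSeq, GRCm38.p6) show which members carry which seed, with bases 2 to 8, counted from the 5′ end, in capitals. The stretch AAGUGCU is the seed of miR-302b-3p and miR-302d-3p. In miR-302c-3p the same stretch begins at base 1, so its bases 2 to 8 are shifted by 1. For Mir302a the RefSeq set used held only the 5p strand, so the seed of its 3p strand is not shown.
miR-302b-3p: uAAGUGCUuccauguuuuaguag
miR-302c-3p: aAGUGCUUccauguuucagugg
miR-302d-3p: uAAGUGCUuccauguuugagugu
miR-302a-5p: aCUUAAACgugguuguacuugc
miR-367-3p: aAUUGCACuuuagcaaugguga

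Outside the cluster, 3 annotated miRNAs had the seed of miR-302b-3p and 6 had that of miR-367-3p, among 426 of 1577 miRNA features that matched RefSeq. These relatives are shown because they serve below as a comparison within the same libraries.
miR-291a-3p: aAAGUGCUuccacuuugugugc
miR-294-3p: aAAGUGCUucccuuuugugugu
miR-295-3p: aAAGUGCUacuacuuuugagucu
miR-92a-3p: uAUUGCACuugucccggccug
miR-25-3p: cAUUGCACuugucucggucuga
miR-92b-3p: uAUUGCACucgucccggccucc
miR-363-3p: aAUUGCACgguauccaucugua

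The 3p strand of Mir302a was not available to compare. Within the cluster, the 3p strands of Mir302b, Mir302c and Mir302d are close copies. Aligned on AAGUGCU they were identical over the first 16 bases, and any pair differed at 2 or 3 of 22 bases. How reads matching several places were assigned is not stated, so the split of reads between these hairpins is less certain than their sum.

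Larp7 (ENSMUSG00000027968.7) spans chr3:127239872-127256266 on the minus strand of NCBIM37, 16395 bases. The hairpins are all on the plus strand, opposite to Larp7. From 5′ to 3′ of the miRNA transcript they are Mir302b (chr3:127248146-127248219), Mir302c (chr3:127248281-127248348), Mir302a (chr3:127248414-127248482), Mir302d (chr3:127248542-127248607) and Mir367 (chr3:127248651-127248725). Together they cover a span of 580 bases, with gaps of 43 to 65 bases. No hairpin overlapped an annotated Larp7 exon, and all 5 lay in the 1547-base intron between exons 8 and 9 of its 13-exon protein-coding transcript.

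**Figure D1:**
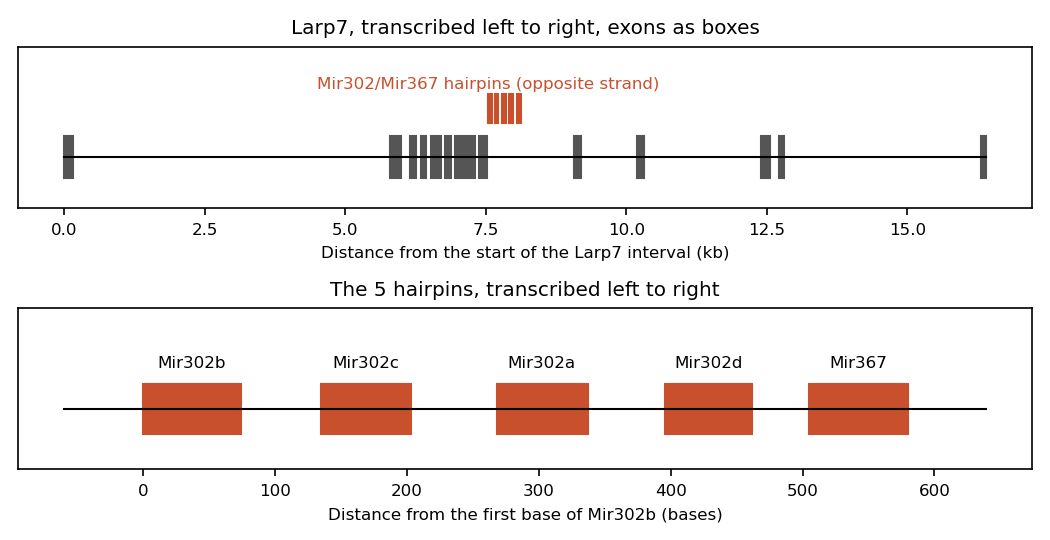
Map of Larp7 (upper panel, distance in kb along the 16395 bases of the gene, exons as grey boxes) and of the 5 hairpins (lower panel, distance in bases from the first base of Mir302b). The hairpins sit in 1 Larp7 intron, on the opposite strand, within 580 bases.

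Libraries held 8710 to 245184 reads, so 1 read was worth 4.08 to 115 reads per 1000000 library reads (RPM). The shallow libraries WT 2A (16142 reads), Dicer/Dnmt1 KO 1A (24491) and Dicer/Dnmt1 KO 1B (8710) carry little weight for single hairpins. A count of 0 allows up to 3 reads, which is 12.2 RPM in WT 1A and 344 RPM in Dicer/Dnmt1 KO 1B, and such limits cover counting error only. Annotated miRNAs took 29.0% to 69.5% of library reads in WT and 6.68% to 12.01% in Dicer/Dnmt1 KO, with 62.7% and 65.4% in the Dnmt1 KO libraries. Of the targeted genes, Dicer1 had 0 to 3 reads in any library and Dnmt1 had at most 18 in any library, and these short fragments do not check the deletions. The ESC label was checked on 6 miRNAs of the Mir290 cluster, which summed to 28002 to 88744 RPM in WT and 55145 and 98673 RPM in Dnmt1 KO. In Dicer/Dnmt1 KO they summed to 1168 to 3430 RPM. A set of 3 neural miRNA features had 0 reads in all 12 libraries. As miRNAs are cut by Dicer, these markers do not check the ESC label of the Dicer/Dnmt1 KO libraries.

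The Larp7 row was examined first, because reads had been counted without regard to strand. It held 1651 reads over the 12 libraries, of which 1646 fell in the 5 hairpins. The remaining 5 reads (0.303%) were all in WT, at most 2 to a library, and 8 of 12 libraries had none. Outside the hairpins Larp7 therefore had a mean of 14.03 RPM over the 6 WT libraries (SD 23.8) and no read in Dnmt1 KO or Dicer/Dnmt1 KO, where a count of 0 over the group allows up to 17.1 and 12.1 RPM. Without the single read of WT 2A, worth 62.0 RPM, the highest WT library had 8.16 RPM. The difference from WT was -14.03 RPM for both knockouts. A two-sided exact permutation test gave p = 0.143 for Dicer/Dnmt1 KO and 0.429 for Dnmt1 KO (adjusted over 3 comparisons 0.429 and 0.643). With untied values the smallest p possible would be 0.00952 and 0.0714. Libraries with 0 reads tie, however, and with both knockouts at 0 the test could give no smaller p for a lower knockout. It therefore cannot decide whether these reads differed. In the third comparison both groups were at 0. The values of the Larp7 row given from here on are those of its hairpins and carry no measurement of Larp7 mRNA. Nor were its partners measurable: of 338 annotated 7SK copies and protein partners of the 7SK particle, Larp7 included, 2 passed the filter on low values, Larp7 and a 7SK copy on chromosome 9 with 67 reads in WT, 5 in Dnmt1 KO and 46 in Dicer/Dnmt1 KO, which was called in none of the 3 comparisons.

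**Figure D2:**
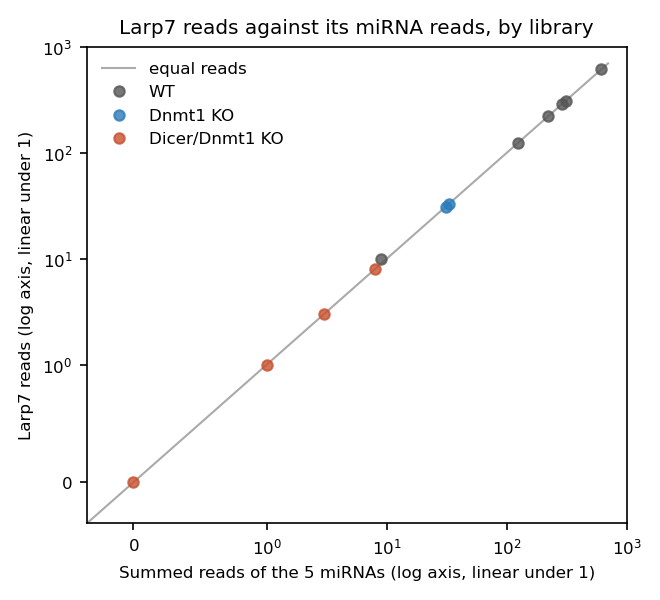
Larp7 reads against the summed reads of the 5 hairpins in each of the 12 libraries, on log axes that are linear under 1; the line marks equal reads. Every library lies on or just above the line, with 0 to 2 reads between them.

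In WT the cluster was led by Mir302d. The 6 WT libraries held 973 Mir302d reads, 353 of Mir302a, 178 of Mir302b, 45 of Mir367 and 21 of Mir302c. By mean WT level, Mir302d ranked 31 of 1577 miRNA features and Mir302a 50, while Mir302b ranked 77, Mir367 114 and Mir302c 135. The cluster was thus present in WT at a modest level, far under the Mir290 cluster.

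Per base of hairpin, the mean WT level fell from 16.1 RPM for Mir302d to 6.21 for Mir302a, 2.66 for Mir302b, 0.616 for Mir367 and 0.367 for Mir302c. Mir302d was above Mir302a in 5 of 6 WT libraries, the exception being WT 2A with 4 and 5 reads. Mir302a was above Mir302b in 6 of 6, and Mir302b above Mir367 in 5 of 6, with both at 0 reads in WT 2A. Mir367 and Mir302c, the next neighbours, had WT ranges that overlapped, and Mir367 was the higher in 4 of 6. The order of the hairpins along the transcript, Mir302b first and Mir367 last, was not the order of their levels.

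Mir302d took 57.2% to 65.0% of cluster reads in the 5 WT libraries with 125 or more of them, Mir302a 20.7% to 27.0% and Mir302b 5.14% to 16.8%. The Mir302b share varied most: it was lowest in WT 2B (5.14%, Wilson 95% interval 3.19% to 8.19%). That was under the intervals of WT 1A (9.27% to 14.3%), 1B (11.6% to 21.1%), 3A (11.3% to 24.3%) and 3B (8.84% to 16.4%). WT 2B was also the library with the largest share of Mir302c (2.57%). WT 2A, with 9 cluster reads, gave 4 to Mir302d and 5 to Mir302a. Pooled over libraries, Mir302d made up 62.0% of cluster reads in WT (interval 59.5% to 64.3%), 73.4% in Dnmt1 KO (61.5% to 82.7%, 47 of 64 reads) and 58.3% in Dicer/Dnmt1 KO (32.0% to 80.7%, 7 of 12 reads). Mir302a made up 22.5%, 20.3% and 33.3%. These intervals overlap between the groups. A difference in these shares was not tested, and intervals from pooled reads leave out the spread between libraries.

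**Figure D3:**
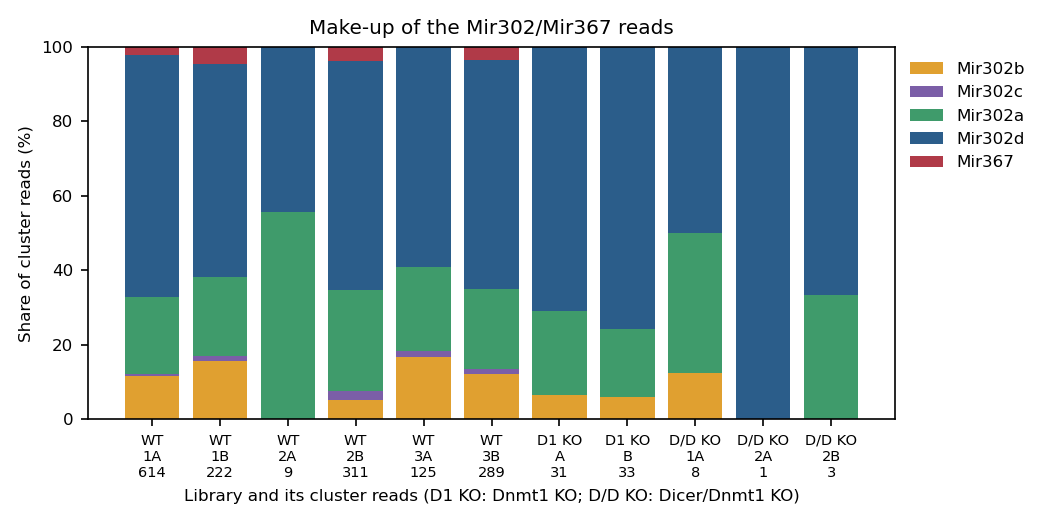
Share of each hairpin in the cluster reads of the 11 libraries that had any, in percent, with the number of cluster reads under each library name. Mir302d forms the largest block in each library but WT 2A, which had 9 cluster reads; the bars of Dicer/Dnmt1 KO 1A, 2A and 2B rest on 8, 1 and 3 reads.

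Mir302d, the most abundant member, had 1627, 876, 248, 1362, 1025 and 1237 RPM in WT 1A, 1B, 2A, 2B, 3A and 3B. It had 325 and 232 RPM in Dnmt1 KO A and B, and 163, 0, 15.8 and 13.3 RPM in Dicer/Dnmt1 KO (1A to 2B in the same order). All Dicer/Dnmt1 KO libraries lay below all others, and both Dnmt1 KO libraries lay below each WT library but the shallow 2A, which fell between them. However, the 0 reads of Dicer/Dnmt1 KO 1B allow up to 344 RPM, above WT 2A and both Dnmt1 KO libraries.

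Mir302a had 518, 324, 310, 599, 388 and 431 RPM in the WT libraries in the same order. In Dnmt1 KO it had 103 and 55.8 RPM, and in Dicer/Dnmt1 KO 122, 0, 0 and 6.64 RPM. Both knockout groups lay below WT in every library, and they overlapped each other through the 3 reads of Dicer/Dnmt1 KO 1A.

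Mir302b had 290, 241, 0, 114, 291 and 243 RPM in WT. It had 2 reads in each Dnmt1 KO library, 29.6 and 18.6 RPM, and a single read in Dicer/Dnmt1 KO, 40.8 RPM in 1A. WT 2A, with 0 reads where 0 allows up to 186 RPM, was the WT library that made the groups overlap.

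Mir367 had 53.0, 69.0, 0, 85.6, 0 and 69.5 RPM in WT, and Mir302c had 16.3, 20.7, 0, 57.1, 27.7 and 27.8 RPM. Both had no read in any of the 6 knockout libraries. They also had no read in WT 2A, and Mir367 had none in WT 3A, whose 0 allows up to 41.6 RPM.

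**Figure D4:**
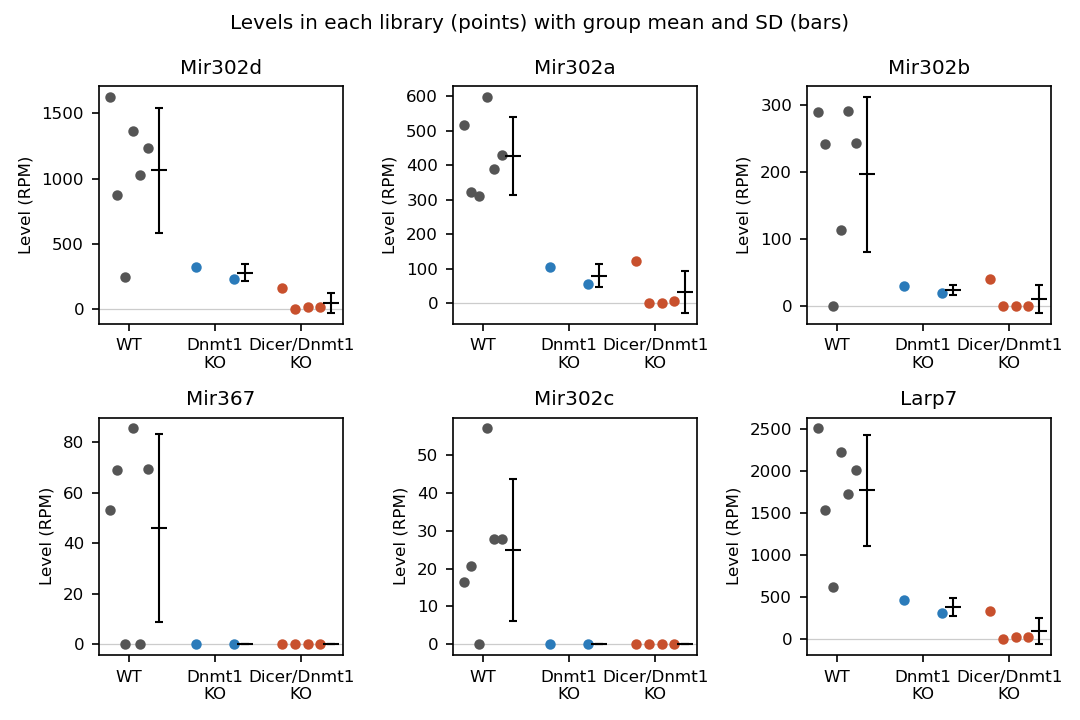
Level of each member in RPM (vertical axis, linear, a scale for each panel) in WT, Dnmt1 KO and Dicer/Dnmt1 KO. Points are libraries and bars the group mean with its SD; Mir302a shows both knockout groups under every WT library, and Mir367 and Mir302c are at 0 in both knockouts. The Larp7 panel repeats the reads of the hairpins.

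Summed over the 5 hairpins, the mean level of the cluster was 1758 RPM in the 6 WT libraries (SD 682), 382 RPM in the 2 Dnmt1 KO libraries (SD 107) and 90.6 RPM in the 4 Dicer/Dnmt1 KO libraries (SD 158). The lowest WT library was 2A with 558 RPM and the highest 1A with 2504 RPM. In Dicer/Dnmt1 KO, 8 of the 12 cluster reads came from 1A (327 RPM), and the other 3 libraries had 0 to 19.9 RPM.

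The loss of both enzymes was addressed by setting Dicer/Dnmt1 KO against WT. Among the features tested, 130 of 683 (19.0%) were called lower at an adjusted p under 0.05 (limma on log2(RPM + 10) after TMM scaling, Benjamini-Hochberg). Of the 6 members 4 were tested: Mir302a and Mir302b reached the minimum level for testing in 2 libraries only within WT, so that they were tested at all rests on the group where they were high, and no count over the members is read as support. Mir302d fell, with a difference of -5.39 on this log2 scale (SE 0.60, adjusted p 1.00e-05), as did Mir302a with -4.73 (SE 0.61, adjusted p 3.46e-05) and Mir302b with -3.40 (SE 0.89, adjusted p 0.0104). With no filter on low values these were -4.78 for Mir302a (SE 0.89, limma adjusted p 3.22e-05) and -3.71 for Mir302b (SE 0.78, adjusted p 0.000473). The Larp7 row, with the same reads, fell by 5.88 (SE 0.67, adjusted p 1.29e-05). In observed level, Mir302a and Mir302d had every Dicer/Dnmt1 KO library below every WT library, as did 12.9% of the features tested. Mir302b did not. The pooled reads give a fold free of the added constant: 45.1-fold lower for Mir302d (95% counting interval 21.8 to 112), 28.6-fold for Mir302a (11.1 to 106) and 57.7-fold for Mir302b (10.2 to 2293, from 1 read). Library 1A held 4 of the 7 Mir302d reads, 3 of the 4 Mir302a reads and the Mir302b read. Without it, a choice made after seeing the data, the folds were 94.8 for Mir302d (interval 32.3 to 460) and 103 for Mir302a (18.4 to 4085, from 1 read). For Mir302b the fold was at least 17.3, against the 3 reads that 0 reads allow over the group and with the WT reads taken as exact.

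Mir367 and Mir302c did not reach the minimum level and were not tested. Against 3 reads over the Dicer/Dnmt1 KO group, which 0 reads allow, Mir367 was at least 4.86-fold lower than in WT and Mir302c at least 2.27-fold lower. Both bounds take the WT reads as exact. With no filter, Mir367 was called in this comparison (-2.29, SE 0.58, limma adjusted p 0.0121) and Mir302c was not (-1.85, SE 0.55, adjusted p 0.0754).

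The loss of Dnmt1 alone was addressed by setting Dnmt1 KO against WT. The cluster level was lower in Dnmt1 KO, but limma called no member, against 2 of 683 features (0.293%) called lower. At an unadjusted p under 0.05, where 3.81% of the features were lower, there were 2, Mir302a and the Larp7 row. With voom weights on the recovered reads, where 1.02% of the features were called lower, 3 were called, Mir302a (-2.21, adjusted p 0.0272), Mir302b (-2.60, adjusted p 0.0424) and the Larp7 row (-1.95, adjusted p 0.0248). Mir302a and Mir302b reached the minimum level for testing in 2 libraries only within WT, so they were tested through the group where they were high. With no filter on low values, limma called none of the 3 (adjusted p 0.756 for Mir302a, 0.650 for Mir302b and 0.818 for the Larp7 row). Mir302a had a log2 difference of -2.18 (SE 0.77, limma adjusted p 0.122), Mir302d of -1.56 (SE 0.75, adjusted p 0.29998), Mir302b of -1.78 (SE 1.12, adjusted p 0.437) and the Larp7 row of -1.94 (SE 0.85, adjusted p 0.248). Both Dnmt1 KO libraries were below every WT library for Mir302a and for the Larp7 row, as for 5.86% of the features tested, but not for Mir302d or Mir302b, where WT 2A lay between them or below.

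These calls turned on single libraries and settings. Without WT 2A, Mir302b had a difference of -2.62 (limma adjusted p 0.0183), and without both libraries of WT culture 2, -2.83 (adjusted p 0.00906), while Mir302a (adjusted p 0.0957 and 0.101) and Mir302d (0.140 and 0.143) were not called. Without Dicer/Dnmt1 KO 1A, which enters this contrast only through the scaling, the filter and the shared spread, Mir302a (-2.16, adjusted p 0.0388) and the Larp7 row (-1.91, adjusted p 0.0459) were called. With a pseudocount of 50, Mir302a was called as well (-1.85, limma adjusted p 0.0195). Mir302d was called under none of the 23 alternatives, with adjusted p from 0.0525 to 0.918.

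In pooled reads, Dnmt1 KO had 64 cluster reads among 175285 and WT 1570 among 762641, which is 5.64-fold lower (counting interval 4.39 to 7.36). By hairpin this was 4.76-fold for Mir302d, 6.24-fold for Mir302a and 10.2-fold for Mir302b (interval 3.93 to 37.9, from 4 reads). With the WT reads taken as exact, Mir367 was at least 3.45-fold lower and Mir302c at least 1.61-fold lower than in WT, against the 3 reads that 0 reads allow. These intervals do not hold the spread between libraries, which the adjusted p-values above do.

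The loss of Dicer in addition to Dnmt1 was addressed by setting Dicer/Dnmt1 KO against Dnmt1 KO, where line and genotype cannot be told apart either. In this comparison 21.7% of the features tested were called lower. Mir302d fell, with a log2 difference of -3.83 (SE 0.80, limma adjusted p 0.00212), as did the Larp7 row with -3.95 (SE 0.90, adjusted p 0.00407) and Mir302a with -2.55 (SE 0.82, adjusted p 0.0371). Mir302b, with 4 reads against 1, had a difference of -1.61 (SE 1.19, adjusted p 0.474). In observed level the groups separated for Mir302d alone of the tested members, as for 22.3% of the features tested. The Mir302a call held in 10 of 23 alternatives, with adjusted p from 0.00175 to 0.649. With A and B of a culture summed, no member was called here (adjusted p 0.0755 for Mir302d, 0.165 for the Larp7 row and 0.388 for Mir302a), and with culture as a random block Mir302a was not (0.117). The Mir302d call was lost besides with no filter (0.201) and without Dnmt1 KO A (0.0778), and that of the Larp7 row with no filter (0.146), without Dnmt1 KO A (0.0942) and without Dnmt1 KO B (0.0515). The comparisons share their libraries pairwise, so they are not independent of each other.

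The relatives outside the cluster, which have the same seeds, were read in the same libraries. The 3 with the miR-302 seed were Mir295, Mir291a and Mir294, all of the Mir290 cluster. In Dicer/Dnmt1 KO against WT, 3 of 3 were called lower, as were 19.0% of all 683 features tested. Their median was -5.38 on the log2 scale, beside -0.09 over all features. In Dnmt1 KO against WT, 0 of 3 were called by limma (1 at an unadjusted p under 0.05, 0 with voom weights), and their differences were -0.10 for Mir295 (SE 0.50), 1.53 for Mir291a (SE 0.64) and -0.02 for Mir294 (SE 0.66), where all features had a median of 0.13. The mean level of Mir295 was 25998 RPM in the 6 WT libraries (SD 14328) and 18472 RPM in both Dnmt1 KO libraries (SD 7185). Against Dnmt1 KO, 3 of 3 were called lower in Dicer/Dnmt1 KO (median -6.43, all features -0.16), as were 21.7% of the features tested.

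Of the 6 relatives with the miR-367 seed 5 were tested, and Mir32 was not. In Dicer/Dnmt1 KO, 5 of 5 were called lower than in WT (median -6.78) and than in Dnmt1 KO (median -6.73). Of all features tested, 19.0% and 21.7% were called lower in these comparisons. In Dnmt1 KO against WT limma called none of the 5 (0 at an unadjusted p under 0.05, 0 with voom weights) and the median was -0.05, with differences of -0.05 for Mir92-1 (SE 0.62), -2.37 for Mir92-2 (SE 1.20), 1.28 for Mir25 (SE 0.64) and 0.32 for Mir92b (SE 0.92). Mir92-1 and Mir92-2 share 1 mature sequence, so their reads cannot be told apart by it. Mir367 supplied at most 0.0540% of the reads of its seed family in any WT library.

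The ratio of Mir302/Mir367 to Mir290 cluster reads within a library needs no scaling between libraries. It was 3.83%, 1.87%, 1.98%, 4.01%, 1.89% and 2.35% in WT 1A to 3B, with a mean of 2.65% ± 0.995 (SD, n = 6). It was 0.462% and 0.551% in Dnmt1 KO, below all 6 WT libraries, WT 2A included. No test was made on this ratio, and 2 libraries against 6 allow no exact p under 0.0714. Over the same libraries the Mir290 cluster itself stood at 67992 RPM in WT (SD 23723) and 77405 RPM in Dnmt1 KO (SD 30810), with 0 of its 7 miRNAs called in either direction by limma (1 at an unadjusted p under 0.05, 0 with voom weights).

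In Dicer/Dnmt1 KO the ratio was 9.41%, 0%, 0.565% and 1.66%. It rested on 8, 0, 1 and 3 cluster reads over 85, 26, 177 and 181 Mir290 cluster reads, and it overlapped both other groups. Here both clusters were low: the Mir290 cluster had 2612 RPM (SD 983, n = 4), with 7 of 7 called lower than in WT, as were 19.0% of the features tested. Of the reads of the 4 Mir302 hairpins and their 3 seed relatives together, the Mir302 hairpins gave 3.55% to 9.31% in WT and 0% to 13.8% in Dicer/Dnmt1 KO, with 1.24% and 1.43% in the Dnmt1 KO libraries.

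**Figure D5:**
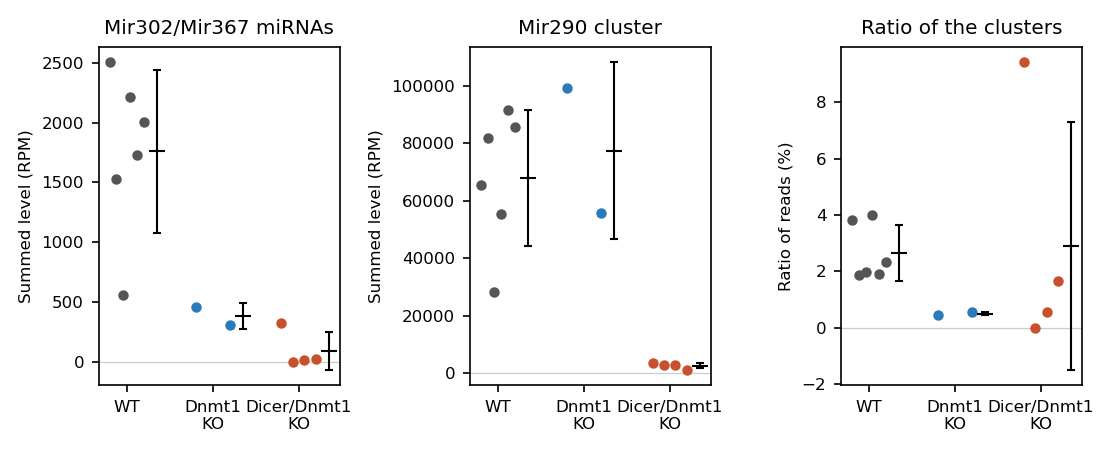
Summed level of the Mir302/Mir367 miRNAs and of the Mir290 cluster (RPM, left and middle) and the ratio of their reads (percent, right) in WT, Dnmt1 KO and Dicer/Dnmt1 KO. Points are libraries and bars the mean with its SD; in Dnmt1 KO the ratio lies under every WT library, and in Dicer/Dnmt1 KO it is spread from 0% to 9.41% on 0 to 8 cluster reads.

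Counted per 1000000 miRNA reads, the cluster had 8635, 3975, 803, 4384, 4806 and 5579 in WT 1A to 3B. It had 700 and 489 in Dnmt1 KO, still under every WT library, though close to WT 2A. In Dicer/Dnmt1 KO it had 2719, 0, 154 and 279, so that 1A lay above WT 2A on this scale.

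Levels of other miRNAs differed between Dnmt1 KO and WT as well. The summed level of 12 miRNAs known from fibroblasts and other mesenchyme was 9862 to 15492 RPM in WT and 12541 to 40802 RPM in Dicer/Dnmt1 KO, with 41313 and 49207 RPM in the Dnmt1 KO libraries. Of these, 5 were tested, and 3 were called higher in Dnmt1 KO than in WT, as were 6.59% of the features tested: Mir21 (log2 difference 1.73), Mir22 (2.62) and Mir143 (3.63). Mir10b (1.23, SE 0.99, limma adjusted p 0.569) and Mir10a (1.55, SE 0.80, adjusted p 0.328) were not called. In Dicer/Dnmt1 KO against WT, Mir143 was called higher (2.95, limma adjusted p 0.0009). Mir10a (1.62), Mir21 (-0.66), Mir22 (-0.78) and Mir10b (-0.34) were not called there. Mir199a-2 had no read in WT or Dnmt1 KO, and Mir214, like it a defining marker of mesenchyme, had 1 read in WT, 6 in Dnmt1 KO and 9 in Dicer/Dnmt1 KO; these markers and Mir143 were singled out after their values were seen. Of the 12, 2 had no read in WT, 3 none in Dnmt1 KO and 1 none in Dicer/Dnmt1 KO. The part of such cells in the level of Mir302/Mir367 was not tested.

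The features most like the summed cluster over the 12 libraries were chosen among the 683 tested and outside the members. Spearman's correlation of log2(RPM + 10) after TMM scaling was used. The features chosen were Mir363 (0.897), Mir101a and its host transcript E130102H24Rik (both 0.874, on the same reads), Mir106a (0.870) and Mir19a (0.866). The median over all features tested was 0.119. The points share the fall of miRNAs in Dicer/Dnmt1 KO and the depth of each library. Mir363, which carries the miR-367 seed and lies near Mir106a on chromosome X, had a mean of 269 RPM over the 6 WT libraries (SD 109), 118 and 121 RPM in Dnmt1 KO and 0 reads in Dicer/Dnmt1 KO. Its difference between Dnmt1 KO and WT was -0.86 (SE 0.53, limma adjusted p 0.435).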

How the data were processed

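Small RNA-seq reads were trimmed by the authors with Trim Galore 0.3.5, filtered to 20 to 24 nt, mapped to NCBIM37 with Bowtie2 2.2.6 and quantitated over annotated features in SeqMonk (tools per the submitters' processing notes and the methods). The deposited values were log2 reads per 1000000 library reads (RPM), with 0 reads written by the authors as 0.9 read. From these, whole reads (within 0.05) were recovered for 100.0% of values in all 12 columns. A further 89 value columns belong to no sample here and were not used. The table was named as counts, but the test was chosen for its log2 unit.

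Libraries were scaled by TMM (trimmed means of log ratios), and log2(RPM + 10) was tested with limma 3.58.1 (R 4.3.3, mean-variance trend) in 1 fit of the 3 groups without covariates. Features needed 111 RPM (10 reads at median depth) in 2 libraries and 15 reads in total, which left 683. Fold changes on this scale understate those of low features. Libraries A and B of a culture differed beyond sampling noise in 6 of 6 cultures (chi-square per degree of freedom 12.0 to 44.7). That does not make them independent, and the consensus correlation within a culture was 0.302. They stayed separate and unblocked in the main fit. Larp7 reads outside hairpins were compared by exact permutation. Positions were taken from the GENCODE annotation on NCBIM37. Intervals are 95% Wilson or exact intervals. All 6 members, the features inside Larp7, the seed, Mir290, 7SK and marker lists (at most 4 examples by WT reads, beside 3 mesenchyme markers singled out later), the 5 most alike features, Dicer1 and Dnmt1 are named. The members and lists were chosen with earlier results of these data known. Alternatives covered scaling, pseudocount, filter, weights, blocks and left-out libraries.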

Additional observations from a re-analysis of the deposited data

Results flagged for a closer look

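Library Dicer/Dnmt1 KO 1A was the highest of the 4 libraries of its group in several rows. It had 40.8 RPM of Mir302b (1 read), 122 RPM of Mir302a and 163 RPM of Mir302d. The Larp7 row and the summed cluster both had 327 RPM there (8 reads). The next highest libraries had 0, 6.64, 15.8 and 19.9 RPM in these rows. The 0 reads of Dicer/Dnmt1 KO 1B allow up to 344 RPM, so 1A is not shown to differ from it. These are the same few reads seen through several rows, and 24491 reads made this library the second shallowest of its group. WT 2A was the highest WT library for Larp7 reads outside the hairpins, at 62.0 RPM, which was 1 read. Of 13 groups of values examined 6 were flagged in this way, by the gap between the highest value and the next. That rule is made for continuous values, so no chance rate is given for counts of 0 to a few reads.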

How the results depend on the processing

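Of 276 values of members under alternative settings, 247 kept their direction and side of the threshold, 8 passed it anew, 21 lost it and 0 reversed. In Dicer/Dnmt1 KO against WT, Mir302d ranged from -6.63 to -3.99 on the log2 scale and the Larp7 row from -7.07 to -4.57. Features called lower in Dnmt1 KO against WT numbered 2. They were 1 with library reads alone, medians of ratios, snoRNA and snRNA factors or culture as a random block, 0 with a pseudocount of 1, no filter or A and B summed, 7 with voom weights, 85 without E14 2, and 0 to 14 leaving out each library in turn (14 without WT 2A). With the replicate block on the title letter the count was 1. Same-numbered libraries did not deviate together (correlations -0.358 to 0.0741, none best with its own number), and the replicate block otherwise ended only the Mir302b call (-2.97). Not subtracting the hairpins turned the Larp7 difference between Dicer/Dnmt1 KO and WT into -1682 RPM (exact permutation, adjusted p 0.0286), by construction. Per 1000000 miRNA reads the summed cluster was 4697 in WT, 595 in Dnmt1 KO and 788 in Dicer/Dnmt1 KO, and with TMM scaling 513 in Dnmt1 KO. Against all seed relatives in place of the Mir290 cluster, the ratio was 1.03% in WT and 0.288% in Dnmt1 KO. With 64 and 12 cluster reads in the knockouts, depth limits every statement on single hairpins there.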
